A study of Mus musculus with 4 samples.

Results

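Il1rl1 (ENSMUSG00000026069) encodes ST2, the receptor for interleukin-33. It was followed as 1 gene of the 32285 gene rows, cell by cell, in regulatory T (Treg) cells from the visceral adipose tissue of male mice. The cells were sorted as CD3+ CD4+ Foxp3+ and profiled in 2 droplet-based single-cell libraries that read RNA from its 5′ end and count molecules by unique molecular identifiers (UMIs). In the Srebf2 pool, KO cells came from 4 mice with floxed Srebf2 (Srebf2flox/flox, Hashtag 2) and WT cells from 4 mice with intact Srebf2 (Srebf2WT/WT, Hashtag 1). Both carried the Foxp3YFP-cre allele, in which Foxp3 drives the recombinase, and all were 25 weeks old. In the diet pool, HFD cells came from 5 mice on a high-fat diet (Hashtag 4) and NCD cells from 5 mice on normal chow (Hashtag 3), for 22 weeks in both. These mice were 23 to 27 weeks old and carried the Foxp3thy1.1 and PpargTdt reporter alleles. Each condition is 1 pool of mice with 1 hashtag, so no difference below has a replicate check and no test was made. All intervals are 95% intervals that cover counting error only.

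A cell was kept with 500 or more genes, under 10% of its UMIs from mitochondrial genes, 90% or more of its hashtag counts from 1 hashtag, and no UMI of Cd79a, Lyz2 or Cd8a, which mark B cells, myeloid cells and CD8 T cells. This kept 7446 of 9036 barcodes of the Srebf2 pool and 9450 of 11456 of the diet pool. The groups held 3956 KO, 3490 WT, 4512 HFD and 4938 NCD cells, whose median depths were 3640.5 (KO), 3589.5 (WT), 3193.5 (HFD) and 3989 UMIs (NCD). The pools shared 135 barcodes, 87 of them among kept cells. Srebf2, the targeted gene, stood at 3.95 counts per 1000000 UMIs (CPM; interval 3.05 to 5.04) in KO cells and at 65.7 CPM (61.5 to 70.1) in WT cells. A Foxp3 UMI was present in 56.7% of KO, 55.4% of WT, 40.5% of HFD and 53.7% of NCD cells. All 6 Treg identity genes and all 6 T cell genes of the marker lists reached 5 CPM in every condition.

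ST2 pairs with the IL-1 receptor accessory protein, encoded by Il1rap, when IL-33 binds. The complex recruits the adaptor MyD88 and IRAK kinases, which pass the signal through TRAF6 to NF-kB and MAP kinases. Epithelial, stromal and endothelial cells are known sources of IL-33, an alarmin, and ST2 is carried by mast cells, group 2 innate lymphoid cells and a part of the tissue Treg cells. In visceral fat, ST2-positive Treg cells are the resident population that depends on the transcription factor PPARγ. The same gene also gives a shorter soluble form, a decoy for IL-33. UMIs were counted per gene, so the membrane and soluble forms are counted together.

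In the RefSeq annotation of GRCm38.p6, Il1rl1 lies on chromosome 1 from 40404864 to 40465418, on the plus strand. It stands in a row of IL-1 receptor family genes, between Il1rl2, which ends 37308 bases before it, and Il18r1, which begins 133 bases after it. RefSeq's promoter table holds windows for a pair of start sites inside these bounds, 10059 bases apart, called distal and proximal here. Both windows are shown because GATA3 is a known activator of this gene and because Gata3 UMIs went with Il1rl1 UMIs in the cells described below. Each runs from 250 bases before the start site to 50 after it, plus strand, and capitals mark GATA motifs, searched on both strands as AGATAA, and in the same way as AGATAG, and further as TGATAA, and last as TGATAG. The distal window is chr1:40429320-40429619, with its start at 40429570, and the proximal window is chr1:40439379-40439678, with its start at 40439629.
distal: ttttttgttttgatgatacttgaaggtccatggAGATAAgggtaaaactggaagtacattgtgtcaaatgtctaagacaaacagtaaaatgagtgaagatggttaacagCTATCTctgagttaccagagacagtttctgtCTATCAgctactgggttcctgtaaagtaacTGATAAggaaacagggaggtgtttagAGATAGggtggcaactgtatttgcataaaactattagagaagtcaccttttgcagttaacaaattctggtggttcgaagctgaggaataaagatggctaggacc
proximal: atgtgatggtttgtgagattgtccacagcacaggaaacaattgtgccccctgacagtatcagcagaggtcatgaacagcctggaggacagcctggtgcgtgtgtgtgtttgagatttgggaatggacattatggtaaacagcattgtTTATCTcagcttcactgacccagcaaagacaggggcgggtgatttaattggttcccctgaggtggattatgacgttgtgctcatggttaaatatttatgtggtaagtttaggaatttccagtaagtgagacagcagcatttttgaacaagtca
The distal window held 5 such matches, at 217, 141, 110, 80 and 54 bases before the start, and the proximal window held 1, at 103 bases before it. At least 1 match was present in 29.8% of all 32851 RefSeq promoter windows of this length, and 5 or more in 0.0548%. The letters TGAGTCA, a motif of AP-1, occurred on either strand in neither window and in 5.20% of all windows, and no match overlapped another. These matches describe the letters and say nothing of binding, and the counts per gene do not tell which start was used.

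Il1rl1 was lower in HFD than in NCD cells and lower, by much less, in KO than in WT cells. KO cells held 9284 Il1rl1 UMIs, 565 CPM (553 to 576), and WT cells 9685 UMIs, 691 CPM (678 to 705). The log2 ratio of KO over WT was −0.29 (−0.33 to −0.25), which is 1.22-fold lower. HFD cells held 2434 Il1rl1 UMIs, 131 CPM (126 to 137), and NCD cells 17819 UMIs, 803 CPM (791 to 815). The log2 ratio of HFD over NCD was −2.61 (−2.67 to −2.55), which is 6.11-fold lower. Genes whose log2 ratio was 0.32 or more in size were counted as lower or higher, which is a rule of size. By it, 2.21% of the 6379 genes at 20 CPM or more were lower in KO than in WT cells and 2.99% higher, and 14.3% of 6547 genes were lower in HFD than in NCD cells and 20.8% higher. Il1rl1 ranked 184 from the lowest ratio in KO over WT, just short of the rule, and 58 from the lowest in HFD over NCD. With 1 pool per condition, the spread between mice cannot be told apart from these differences.

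UMIs of Il1rl1 were spread unevenly over the cells of every condition. A KO cell held a median of 1 UMI, with 6 at the 90th percentile and at most 46. A WT cell held a median of 2 UMIs, with 7 at the 90th percentile and at most 34. An HFD cell held a median of 0 UMIs, with 2 at the 90th percentile and at most 28. An NCD cell held a median of 3 UMIs, with 8 at the 90th percentile and at most 45. The upper ends of the ranges therefore overlapped in all conditions, while the medians ran from 0 to 3. The variance over the mean was 5.77 in KO, 4.16 in WT, 5.18 in HFD and 3.54 in NCD cells, where a Poisson count of equal cells gives 1. No Il1rl1 UMI was found in 41.3% of KO cells, 29.0% of WT cells, 82.4% of HFD cells and 21.9% of NCD cells. A Poisson count with the same depths and an equal Il1rl1 share in every cell would leave 15.1%, 11.1%, 62.5% and 6.44% in that order of conditions. The 10% of cells with the most Il1rl1 UMIs held 45.4% of all Il1rl1 UMIs in KO, 37.4% in WT, 84.7% in HFD and 31.5% in NCD.

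To compare shares at 1 depth, each cell was thinned at random to 2000 UMIs, which left out 311 KO, 307 WT, 711 HFD and 286 NCD cells with fewer. An Il1rl1 UMI then remained in 48.1% of KO cells (46.5 to 49.8) and 59.6% of WT cells (57.9 to 61.3). It remained in 14.6% of HFD cells (13.5 to 15.7) and 67.3% of NCD cells (65.9 to 68.6). Before thinning the shares were 58.7% of KO, 71.0% of WT, 17.6% of HFD and 78.1% of NCD cells. Among cells with at least 1 thinned UMI the mean was closer between conditions, at 2.34 UMIs in KO and 2.32 in WT cells, and at 1.97 in HFD and 2.41 in NCD cells. Such a mean cannot fall below 1, so part of this closeness follows from how it is taken. Cells with 3 or more thinned UMIs, called Il1rl1-high here, made up 14.7% of KO cells (535 cells), 18.4% of WT cells (586), 3.45% of HFD cells (131) and 25.8% of NCD cells (1200). This class is a range of counts and not a cell type: 452 KO, 513 WT, 123 HFD and 857 NCD cells lay just under the limit at 2 UMIs, and 250, 281, 58 and 596 just above it at 3.

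**Figure D1:**
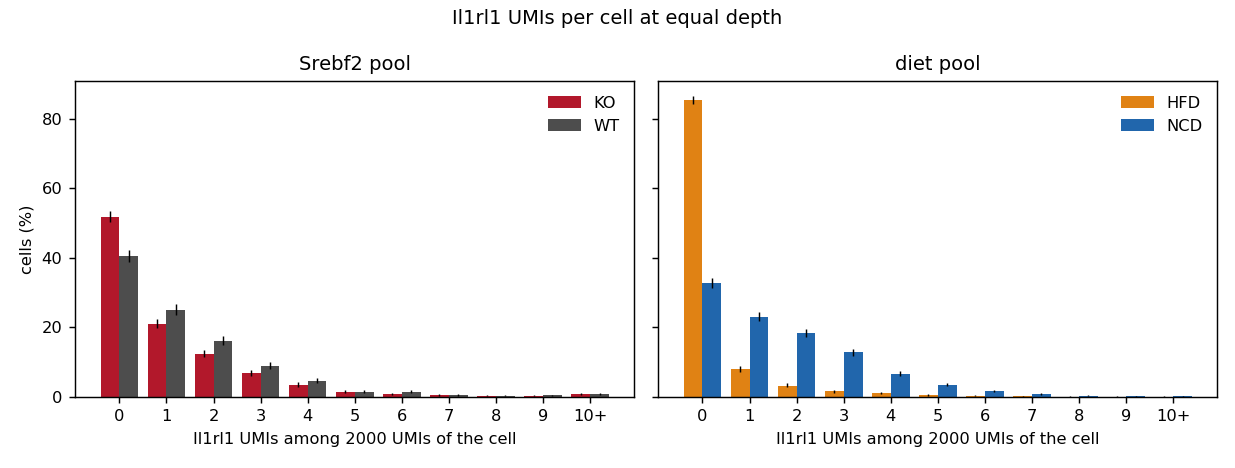
Percent of cells (vertical axis) by number of Il1rl1 UMIs after thinning each cell to 2000 UMIs (horizontal axis), for KO and WT (left) and HFD and NCD (right), with Clopper-Pearson intervals for counting error. HFD cells stand at 85.4% without a UMI against 32.7% of NCD cells, and KO cells at 51.9% against 40.4% of WT cells.

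The share of cells with an Il1rl1 UMI depended on depth in every condition. In cells of 2000 to 3000 UMIs it was 42.7% in KO and 56.7% in WT, and in cells of 6000 or more it was 76.4% in KO and 86.4% in WT. The same bins gave 13.3% in HFD and 57.4% in NCD, then 24.8% in HFD and 91.8% in NCD. The intervals of the paired conditions did not overlap in any of the 5 depth bins, with HFD below NCD and KO below WT in each. In WT cells under 2000 UMIs it was 59.0%, no lower than in the next bin. After thinning to equal depth, cells of 2000 to 3000 original UMIs held an Il1rl1 UMI in 38.1% of KO, 51.0% of WT, 11.8% of HFD and 52.4% of NCD cases. Cells of 4000 to 6000 held one in 53.8% of KO, 64.6% of WT, 16.7% of HFD and 71.7% of NCD cases, and those of 6000 or more in 53.7% of KO, 62.7% of WT, 12.6% of HFD and 71.1% of NCD cases. The deepest HFD cells were thus near the shallowest of these HFD bins. The level as CPM varied less, from 530 to 683 CPM over the KO bins and from 91.0 to 178 CPM over the HFD bins. WT cells under 2000 UMIs were apart, at 1264 CPM (1164 to 1370), with the other WT bins between 606 and 710 CPM.

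**Figure D2:**
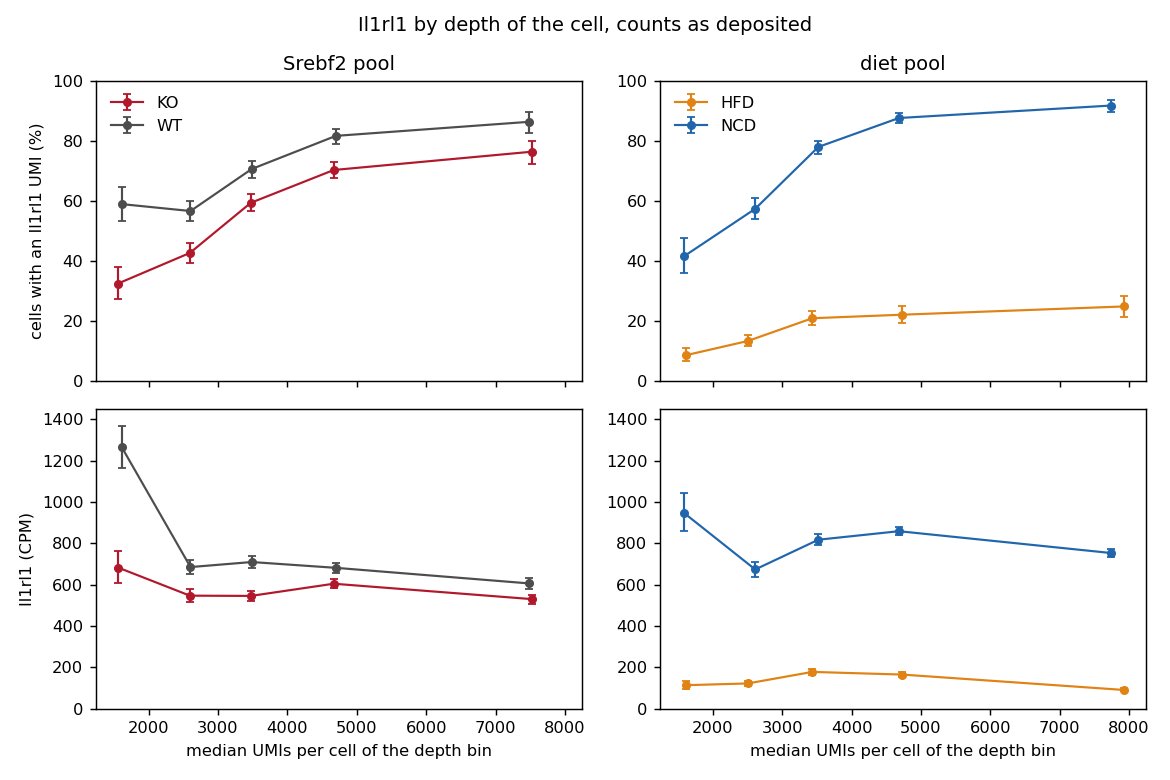
Share of cells with an Il1rl1 UMI (top, percent) and Il1rl1 level (bottom, CPM) by median UMIs per cell of 5 depth bins, for KO and WT (left) and HFD and NCD (right), counts as deposited, bars are exact intervals for counting error. The share is highest in the deepest cells, at 91.8% in NCD and 24.8% in HFD, and the WT bin under 2000 UMIs stands apart at 1264 CPM.

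Droplets of other cell types were read for the level that free RNA can leave. Among B cell droplets, chosen by Cd79a and Cd79b without T cell genes, 2 of 69 in the Srebf2 pool (2.90%; 0.353 to 10.1; median 4075 UMIs) and 6 of 172 in the diet pool (3.49%; 1.29 to 7.44; median 3577.5 UMIs) held an Il1rl1 UMI. Thinned, these shares were 1.49% (0.0378 to 8.04) and 2.45% (0.673 to 6.16). They vary with the random draw. Draws made by condition left 1 of 31 KO, 1 of 36 WT, 1 of 55 HFD and 1 of 108 NCD droplets with an Il1rl1 UMI. Macrophage droplets, chosen by Lyz2 without T cell genes, held an Il1rl1 UMI in 1 of 17 cases in the Srebf2 pool (5.88%; 0.149 to 28.7; median 6044 UMIs) and in 7 of 34 in the diet pool (20.6%; 8.70 to 37.9; median 9649.5 UMIs). Of those 7, 1 was among 13 HFD and 6 among 21 NCD droplets. Thinned, the share in the diet pool was 13.3% (3.76 to 30.7) of 30 macrophage droplets, an interval that includes the 14.6% of HFD cells, while the B cell interval lies below it. Mast cells and eosinophils can carry ST2 themselves. The 5 eosinophil genes summed to at most 1 UMI in the Il1rl1-high cells of any condition. The 9 mast cell and basophil genes summed to 17.8 CPM in Il1rl1-high and 8.73 CPM in Il1rl1-zero KO cells, 5.97 and 6.23 CPM in WT cells, 26.7 and 2.93 CPM in HFD cells, and 15 and 11.5 CPM in NCD cells, with Fcer1a and Ms4a2 at 0 in all kept cells. The HFD value of Il1rl1-high cells rests on 7 UMIs, with 7 of the 9 genes at 0. The 9 adipocyte, stromal and endothelial genes summed to 94.4 CPM in Il1rl1-high and 89.7 CPM in Il1rl1-zero KO cells, 57.2 and 169 CPM in WT cells, 279 and 140 CPM in HFD cells, and 29.6 and 63.0 CPM in NCD cells. Over all cells, 5 of the 5 members at 5 CPM or more were higher in HFD than in NCD, beside 23.6% of all genes. The part of such cells or their free RNA in the Il1rl1 values was not tested. Group 2 innate lymphoid cells share Gata3, Rora and Klrg1 with these Treg cells, so that no gene of that list is private to them. The Treg identity genes summed to 4570 CPM in Il1rl1-high and 2732 CPM in Il1rl1-zero KO cells, 4291 and 2874 CPM in WT cells, 4023 and 2590 CPM in HFD cells, and 3098 and 2542 CPM in NCD cells. Il2ra, Ctla4 and Tnfrsf18 among them are also on the list of ST2-linked effector genes read below, so this sum is not separate from those genes. In Il1rl1-high and Il1rl1-zero NCD cells they stood at 768 and 428 CPM (Il2ra), 763 and 670 CPM (Ctla4), and 474 and 396 CPM (Tnfrsf18). The 6 T cell genes went the other way, at 2677 CPM in Il1rl1-high and 3359 CPM in Il1rl1-zero KO cells. They stood at 2585 and 3117 CPM in WT cells, 2985 and 3933 CPM in HFD cells, and 2649 and 3089 CPM in NCD cells.

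Il1rl1 was then read over clusters of cells that were made without it. In the Srebf2 pool, cluster 1, led by Calca, Atf3 and Cxcl1, stood at 801 CPM (777 to 826) in 1076 KO cells and 799 CPM (776 to 823) in 1302 WT cells. Cluster 0, led by haemoglobin and heat shock genes, stood at 671 CPM (642 to 702) in 778 KO cells and 669 CPM (642 to 696) in 1004 WT cells. The KO and WT levels of each of these 2 clusters lay within the counting error of one another. Cluster 2, with Tcf7, Ms4a4b and Ccr7 among its leading genes, stood at 211 CPM (198 to 224) in 1265 KO cells and 178 CPM (161 to 197) in 608 WT cells. Ccr7 guides T cells to lymph nodes and Tcf7 marks resting T cells. Cluster 3, led by Ccl5, Tbx21 and Nkg7, genes of type 1 responses, stood at 95.1 CPM (81.1 to 111) in 468 KO cells and 149 CPM (124 to 177) in 233 WT cells. Cluster 4, with Hist1h1b among its leading genes, stood at 221 CPM (187 to 259) in 49 KO cells. Its 41 WT cells stood at 330 CPM (284 to 382). Cluster 6, led by Ccl4, stood at 397 CPM (327 to 478) in 42 KO cells and 672 CPM (572 to 785) in 35 WT cells. With both conditions given the same weight per cluster, the level was 636 CPM in KO and 658 CPM in WT cells, a log2 ratio of −0.05, against −0.29 over all cells. The clusters rest on genes that themselves differ between the conditions, so their cell numbers are given only as the n behind each level.

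In the diet pool, cluster 5, led by Atf3, Egr1 and Cxcl2 with Areg among its 10 leading genes, stood at 1084 CPM (1013 to 1158) in 199 HFD cells and 966 CPM (949 to 984) in 2610 NCD cells. Cluster 4, led by Txnip, Fmn1 and Hspa1a, stood at 1210 CPM (994 to 1458) in 27 HFD cells and 923 CPM (894 to 952) in 1034 NCD cells. In these clusters the level of HFD cells was no lower than that of NCD cells. Cluster 0, led by Ly6c2 and haemoglobin genes, stood at 43.4 CPM (38.0 to 49.4) in 1708 HFD cells and 152 CPM (135 to 170) in 576 NCD cells. Cluster 1, led by Sostdc1, Cd83 and Il1r2, stood at 80.7 CPM (73.2 to 88.8) in 1043 HFD cells and 132 CPM (92.1 to 182) in 46 NCD cells. Cluster 3, with Igfbp4 and Ccr7 among its leading genes, stood at 10.3 CPM (7.03 to 14.5) in 841 HFD cells and 25.7 CPM (8.35 to 60.0) in 58 NCD cells. Cell-cycle genes led cluster 9, at 47.8 CPM (39.0 to 58.1) in 105 HFD cells and 568 CPM (511 to 631) in 39 NCD cells. With the same weight per cluster, the level was 512 CPM in HFD and 527 CPM in NCD cells, a log2 ratio of −0.04, against −2.61 over all cells. That value gives 27 HFD cells of cluster 4 the weight of a cluster that held 1034 NCD cells. Cluster 2, led by Ramp3 and Isg15, stood at 374 CPM (344 to 407) in 426 HFD cells and 463 CPM (422 to 506) in 233 NCD cells. Cells with 3 or more thinned Il1rl1 UMIs were spread differently over the clusters in the 2 conditions. Cluster 5 held 50.4% of them in HFD and 69.2% in NCD, cluster 2 held 26.0% in HFD and 1.67% in NCD, and cluster 4 held 7.63% in HFD and 25.1% in NCD.

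**Figure D3:**
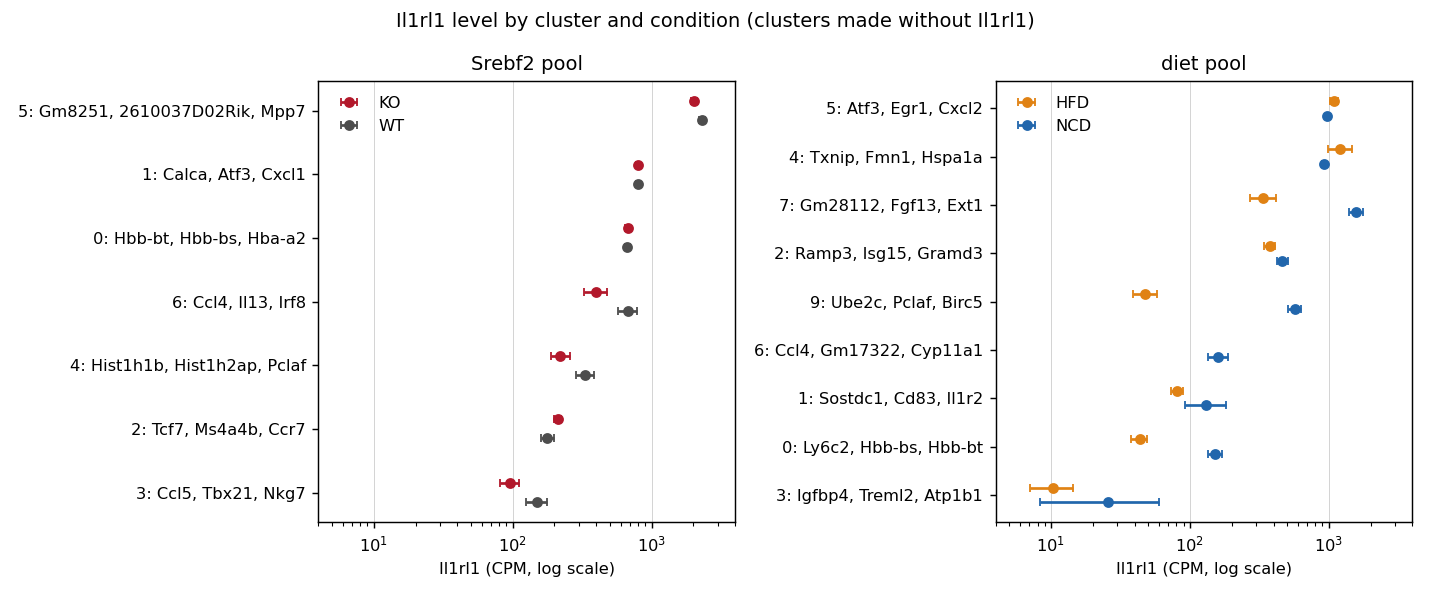
Il1rl1 level (CPM, log axis) by cluster, ordered by level and named by number and 3 of its 10 leading genes, for KO and WT (left) and HFD and NCD (right), bars are exact Poisson intervals and groups under 20 cells are left out. In the Srebf2 pool KO and WT lie together in clusters 0 and 1. The KO interval lies below the WT one in clusters 3, 4, 5 and 6 and above it in cluster 2. In the diet pool the HFD interval lies below the NCD one in clusters 0, 1, 2, 7 and 9. The intervals overlap in cluster 3, and HFD is not below NCD in clusters 4 and 5.

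One cluster of each pool stood apart in its RNA. In cluster 5 of the Srebf2 pool, 27.2% of UMIs came from genes of 100 kb or longer and 3.44% from ribosomal protein genes, and in cluster 7 of the diet pool 31.0% and 3.49%. The other clusters of 50 or more cells had at most 8.50% and at least 18.3%. Il1rl1 stood at 2013 CPM (1920 to 2111) in the 278 KO cells of that cluster and 2307 CPM (2200 to 2417) in its 267 WT cells, and they held 18.6% and 18.3% of the Il1rl1 UMIs of their conditions. In the diet pool it stood at 336 CPM (269 to 415) in 143 HFD cells and 1561 CPM (1388 to 1749) in 86 NCD cells. Without these clusters, a setting added after the data had been seen, the level was 485 CPM in KO, 598 in WT, 128 in HFD and 796 CPM in NCD cells. The log2 ratios were then −0.30 (−0.35 to −0.26) for KO over WT and −2.63 (−2.70 to −2.57) for HFD over NCD. The variance over the mean was 4.19 in KO, 3.15 in WT, 5.06 in HFD and 3.51 in NCD cells without them. The level of WT cells under 2000 UMIs was 621 CPM without them, against 1264 CPM with them.

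To find the genes that go with Il1rl1, Pearson r was taken across the thinned cells of each condition, between log2(UMIs + 1) of Il1rl1 and of every gene with a UMI in 5% or more of the cells. The values describe cells that share a library, and no p is given. An r of 0.2 or more was found for 0.998% of 5310 genes in KO, 0.434% of 5301 in WT, 1.28% of 5227 in HFD and 0.313% of 5107 in NCD cells. In KO cells r was highest for Il2ra (0.34), the high-affinity IL-2 receptor chain, then Nfkb1 (0.33), Klrg1 (0.33), Itgav, Zfp36, Dennd4a, Ltb4r1, Areg, Elovl5 and Tnfaip3 (0.28). In WT cells it was highest for Dennd4a (0.32), then Itgav, Il2ra, Klrg1, Nfkb1, Samsn1, Rora, Elovl5, Areg and Frmd5 (0.24). In HFD cells it was highest for Klrg1 (0.53), an inhibitory receptor of differentiated lymphocytes, then Ltb4r1 (0.46), a leukotriene B4 receptor, Zfp36, Gadd45b, Areg, Ctla2a, Nfkbia, Fgl2, Cxcl2 and Anxa1 (0.35). In NCD cells it was highest for Klrg1 (0.31), then S100a6 (0.30), Zfp36, Vim, Ltb4r1, Jund, Areg, Il2ra, S100a4 and Cxcr6 (0.22). The 50 highest genes of 2 conditions shared between 17 (WT and NCD) and 32 (HFD and NCD) of 50. In all 4 conditions 11 genes were among the 50: Klrg1, Ltb4r1, Zfp36, Areg, Il2ra, Samsn1, Tnfaip3, Cxcl2, Il7r, Arl5a and Cd200r1. Areg encodes amphiregulin, a growth factor of tissue repair, and Zfp36 and Tnfaip3 encode brakes on inflammatory RNAs and on NF-kB.

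The long-gene clusters bore on these lists. The median gene length of the 50 highest genes was 50.4 kb in KO and 79.9 kb in WT, against 8.68 kb in HFD and 7.70 kb in NCD and about 24 kb over the tested genes, whose medians ran from 23.6 to 24.2 kb. Genes over 100 kb made up 14 of the 50 in KO, 19 in WT, 2 in HFD and 2 in NCD. Without the long-gene clusters they made up 5 in KO, 4 in WT, 2 in HFD and 1 in NCD, and the genes among the 50 highest in all 4 conditions numbered 27. These 27 hold 10 of the 11 above, all but Cd200r1, and add, among others, S100a6, Nfkbia, Gadd45b, Ctla2a, Anxa1, Vim, Cxcr6 and Gata3. Of the 50 highest in all cells, 30 stayed among the 50 in KO, 20 in WT, 48 in HFD and 49 in NCD.

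**Figure D4:**
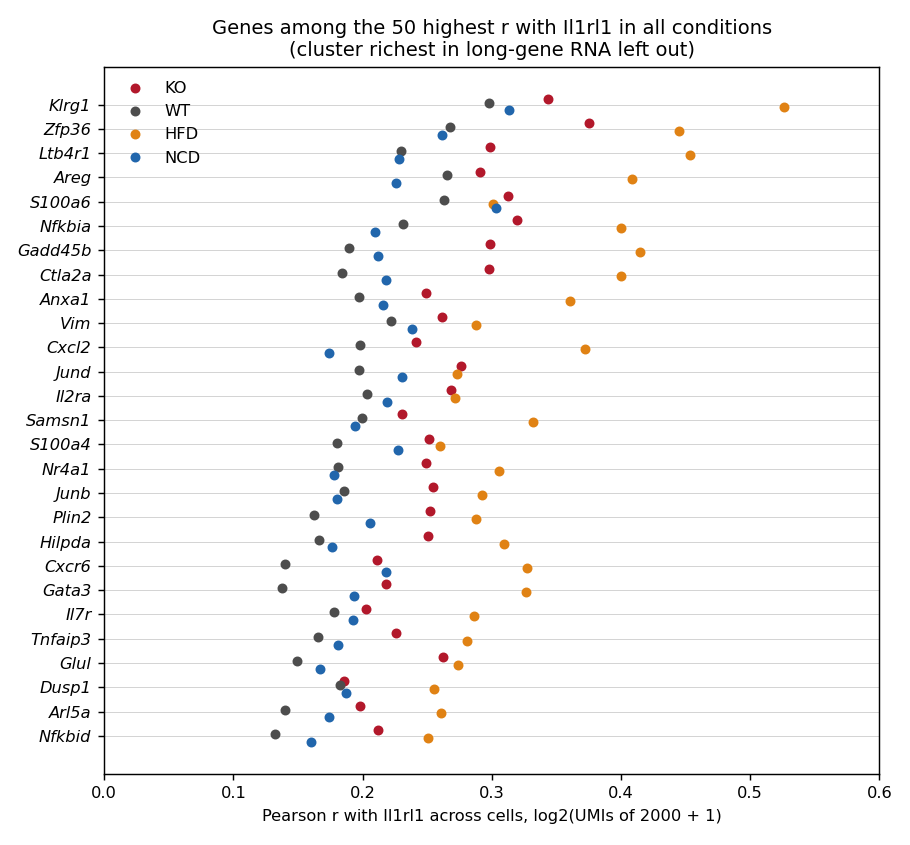
Pearson r with Il1rl1 across cells (horizontal axis) of the 27 genes that were among the 50 highest in all 4 conditions without the long-gene clusters, 1 row per gene and 1 point per condition. HFD points lie farthest right for Klrg1, at 0.53 over all cells against 0.31 in NCD.

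An r of −0.2 or less was found for 1.21% of the genes in KO, 1.06% in WT, 0.0765% in HFD and 0.137% in NCD cells. In KO and WT cells the lowest included Tmsb10 (−0.32 in both), Fau, Ms4a4b, Ccl5 and Cxcr3, and in NCD cells Ms4a4b (−0.35), Cxcr3 (−0.29), Ccl5 (−0.29), Gm2682, Nkg7 and Itgb1. In HFD cells they were Tmsb10 (−0.24), Ms4a4b (−0.24), Tcf7, Izumo1r, Gm2682 and Ms4a6b (−0.17). These values include the long-gene clusters, which were poor in ribosomal protein RNA. Ribosomal protein genes gave 14.3% of UMIs in Il1rl1-high and 19.4% in Il1rl1-zero KO cells, and 15.4% and 19.8% in WT cells. They gave 20.2% and 25.9% in HFD cells, and 20.3% and 22.2% in NCD cells. The part of those clusters in the lowest r was not tested. Ccl5 stood at 94.4 CPM in Il1rl1-high and 1427 CPM in Il1rl1-zero KO cells, at 36.7 and 702 CPM in WT cells, and at 48.3 and 1133 CPM in NCD cells. In HFD cells, where its r was −0.07, it stood at 26.7 and 534 CPM.

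Counted by marker UMIs in thinned cells, an Il1rl1 UMI was present in 62.8% of Klrg1-positive KO cells, 68.5% of such WT cells, 59.5% of such HFD cells and 75.8% of such NCD cells. Without a Klrg1 UMI the shares were 26.1% in KO, 35.3% in WT, 8.0% in HFD and 38.6% in NCD cells. The diet conditions lay closer among Klrg1-positive cells than over all cells, and Klrg1 itself was lower in HFD, at 143 CPM against 1096 CPM in NCD. Among cells with a UMI of Areg the share was 61.0% in KO, 69.7% in WT, 32.0% in HFD and 76.9% in NCD. Among cells with a UMI of Cxcr3, a chemokine receptor of type 1 responses, it was 15.6% in KO, 13.7% in WT, 7.81% in HFD and 22.8% in NCD. Among cells with a UMI of Ccr7 it was 12.2% of 90 KO cells, 22.2% of 45 WT cells, 2.36% of 551 HFD cells and 19.2% of 78 NCD cells, so the HFD share lies at the level of the B cell droplets. A UMI of Fos, Atf3 or Hspa1a, genes that respond to cell handling, went with a higher share: 53.9% against 34.4% without one in KO, 63.4% against 45.6% in WT, 23.9% against 9.71% in HFD and 73.8% against 50.8% in NCD cells. Such a UMI was present in 2562 KO cells and absent from 1083, and present in 2505 WT cells and absent from 678. It was present in 1308 HFD cells and absent from 2493, and present in 3330 NCD cells and absent from 1322. The conditions thus differed in this trait, HFD and NCD most. The part of handling in these shares, and in the differences between conditions, was not tested.

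The ligand and the co-receptor chain had few UMIs in these cells. Il33, the ligand, gave 10 UMIs in KO, 4 in WT, 1 in HFD and 0 in NCD cells. Il1rap stood at 10.2 CPM (8.67 to 11.8) in KO and 12.3 CPM (10.5 to 14.3) in WT, and at 9.81 CPM (8.44 to 11.3) in HFD and 12.0 CPM (10.6 to 13.5) in NCD. Its log2 ratio was −0.27 (−0.59 to 0.04) for KO over WT and −0.29 (−0.57 to −0.01) for HFD over NCD. Of the 14 adaptor and kinase genes from Myd88 to Mapk14, 0 were past the rule of size in KO over WT, where 4.9% of all genes at 5 CPM or more were lower and 5.41% higher. In HFD over NCD, Irak2 was lower (−0.85, −0.96 to −0.74) and Mapk8 higher (0.63, 0.39 to 0.86), and 12 were within the rule, against 15.8% of all genes lower and 23.6% higher. The median log2 ratio of the 14 was 0.02 in KO over WT and 0.09 in HFD over NCD, beside 0.00 and 0.08 over all genes.

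Of the 9 NF-kB subunits and inhibitors, 0 were past the rule in KO over WT, beside 4.9% of all genes lower and 5.41% higher. In HFD over NCD, where 15.8% of all genes were lower and 23.6% higher, 4 were lower, Nfkbiz (−1.32), Nfkbia (−1.10), Tnfaip3 (−0.91) and Nfkb1 (−0.54), and 3 were higher, Rel (0.62), Relb (0.49) and Nfkb2 (0.40). The 4 that were lower each had an r with Il1rl1 of 0.127 or more in every condition. Of the 3 that were higher, Rel had an r of 0.15 in KO, 0.14 in WT, 0.10 in HFD and 0.05 in NCD cells. Relb and Nfkb2 had an r of 0.055 or less in every condition. Nfkbia, the inhibitor that NF-kB itself induces, stood at 1275 CPM in HFD and 2735 CPM in NCD cells. Among the negative regulators, Irak3, a kinase-dead IRAK, stood at 6.04 CPM in HFD and 15.1 CPM in NCD (−1.32, −1.65 to −1.01), while Sigirr, an inhibitory receptor of the family, had a log2 ratio of 0.26 (0.15 to 0.37).

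Of the neighbours on chromosome 1, Il1r2 and Il18r1 were higher, summed over cells, in the conditions where Il1rl1 was lower. Il18rap was lower in HFD than in NCD, as Il1rl1 was. Il1r2, the IL-1 decoy receptor, stood at 17.9 CPM (16 to 20.1) in KO and 9.06 CPM (7.56 to 10.8) in WT, and at 56.0 CPM (52.7 to 59.5) in HFD and 8.11 CPM (6.97 to 9.38) in NCD. Its log2 ratios were 0.98 (0.68 to 1.30) and 2.79 (2.56 to 3.03) in the same order of comparisons. Il18r1, the IL-18 receptor chain that begins 133 bases downstream, stood at 88.4 CPM in KO and 68.8 CPM in WT (0.36, 0.24 to 0.48), and at 138 CPM in HFD and 55.5 CPM in NCD (1.31, 1.21 to 1.41). Its partner chain Il18rap stood at 44.9 CPM in KO and 48.3 CPM in WT (−0.10, −0.26 to 0.05), and at 32.0 CPM in HFD and 50.1 CPM in NCD (−0.65, −0.79 to −0.50). Across cells, r with Il1rl1 was −0.01 in KO, 0.01 in WT, −0.01 in HFD and −0.12 in NCD for Il18r1, and 0.08, 0.11, 0.10 and 0.02 in the same order for Il18rap. Il1r1 and Il1rl2 stayed at 1.83 CPM or less in every condition.

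Of 12 transcription factors linked to ST2-positive Treg cells, 0 were lower and 1, Bhlhe40, was higher in KO over WT (0.82, 0.73 to 0.91), beside 4.9% of all genes lower and 5.41% higher. In HFD over NCD, 8 were lower and 3 higher, beside 15.8% of all genes lower and 23.6% higher. Pparg stood at 8.84 CPM in HFD and 71.2 CPM in NCD (−3.01, −3.25 to −2.78), and Gata3 at 220 CPM in HFD and 591 CPM in NCD (−1.42, −1.48 to −1.37). Bhlhe40 stood at 221 CPM in HFD and 55.4 CPM in NCD (2.00, 1.91 to 2.09). Of 23 ST2-linked effector genes, 4 were lower and 3 higher in KO over WT, and 14 lower and 7 higher in HFD over NCD, with a median of −0.16 in KO over WT and −2.37 in HFD over NCD, against the same shares and medians over all genes.

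Among Il1rl1-high cells the diet conditions lay closer for many of these genes than over all cells, and among Il1rl1-zero cells they did not for Areg and Klrg1. Il1rl1-high cells held Areg at 3511 CPM in HFD and 4207 CPM in NCD (−0.26, −0.36 to −0.16), and Il1rl1-zero cells held it at 390 CPM in HFD and 2171 CPM in NCD (−2.48, −2.54 to −2.41). Klrg1 stood at 1095 CPM in HFD and 1352 CPM in NCD Il1rl1-high cells (−0.30, −0.48 to −0.13), and at 57.1 CPM in HFD and 713 CPM in NCD Il1rl1-zero cells (−3.64, −3.80 to −3.48). Gata3 stood at 775 CPM in HFD and 729 CPM in NCD Il1rl1-high cells (0.09, −0.13 to 0.30). Cxcr6, a chemokine receptor of resident T cells, was lower among Il1rl1-high cells, at 366 CPM in HFD and 666 CPM in NCD (−0.86, −1.18 to −0.56). Other genes were higher in HFD in the Il1rl1-high cells: Bhlhe40 stood at 256 CPM in HFD and 33.3 CPM in NCD (2.94, 2.45 to 3.43), Penk at 153 CPM in HFD and 22.5 CPM in NCD (2.77, 2.13 to 3.38) and Tnfrsf9, the activation receptor 4-1BB, at 393 CPM in HFD and 77.9 CPM in NCD (2.34, 1.97 to 2.69). These genes were also higher in HFD among Il1rl1-zero cells. There the log2 ratio was 1.31 (1.11 to 1.52) for Bhlhe40, 1.63 (1.32 to 1.98) for Penk and 1.13 (0.93 to 1.35) for Tnfrsf9. In all cells together it was 2.00, 2.12 and 1.31 in that order. Over the effector genes at 20 CPM or more the median log2 ratio was −0.08 in Il1rl1-high cells (20 genes, 6 lower and 9 higher) and −1.54 in Il1rl1-zero cells (19 genes, 11 lower and 7 higher). Over all genes it was 0.10 with 20.6% lower and 33% higher in Il1rl1-high cells, and 0.01 with 15.6% lower and 16.1% higher in Il1rl1-zero cells. The HFD values of Il1rl1-high cells rest on 131 cells, of which cluster 2 held 26.0% against 1.67% of the NCD ones. The Il1rl1-zero classes differed in makeup too. Clusters 4 and 5 held 993 and 2559 thinned NCD cells, with an Il1rl1 UMI in 77.6% and 80.9% of them. They held 22 and 189 HFD cells, with one in 81.8% and 81.5%. Many more Il1rl1-zero cells of NCD than of HFD thus came from these clusters, where most cells held Il1rl1. The part of either makeup in these ratios was not tested.

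**Figure D5:**
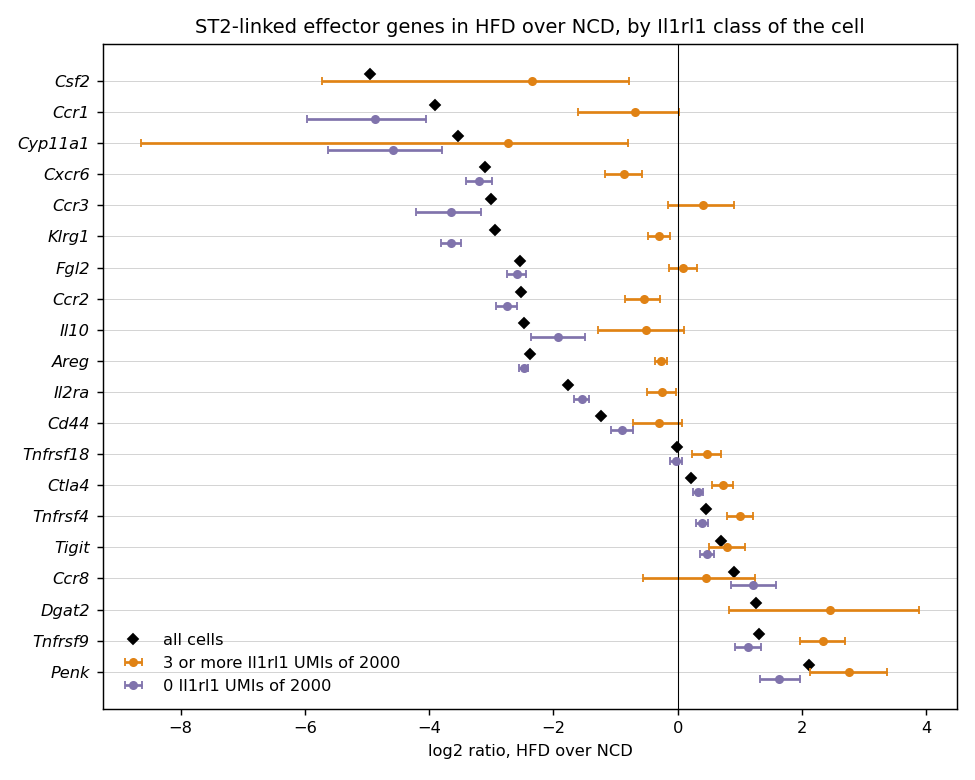
Log2 ratio of HFD over NCD (horizontal axis) of the 20 ST2-linked effector genes at 20 CPM or more in Il1rl1-high cells, in all cells, in cells with 3 or more and in cells with 0 Il1rl1 UMIs of 2000, with exact counting intervals for the classes. Areg lies at −0.26 in Il1rl1-high cells and −2.48 in Il1rl1-zero cells, while Penk lies at 2.77 in Il1rl1-high cells.

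In the Srebf2 pool, Il1rl1-high cells held Areg at 3985 CPM in KO and 3546 CPM in WT (0.17, 0.11 to 0.23), and Il1rl1-zero cells held it at 1460 CPM in KO and 1755 CPM in WT (−0.27, −0.32 to −0.21). Pparg stood at 205 CPM in KO and 188 CPM in WT Il1rl1-high cells (0.12, −0.15 to 0.40), and at 55.8 CPM in KO and 85.6 CPM in WT Il1rl1-zero cells (−0.62, −0.90 to −0.34). Il10, an inhibitory cytokine, stood at 209 CPM in KO and 143 CPM in WT Il1rl1-high cells (0.55, 0.25 to 0.84). Ccr3, a chemokine receptor known from eosinophils, stood at 29.9 CPM in KO and 96.4 CPM in WT Il1rl1-high cells (−1.67, −2.30 to −1.11). Of the effector genes at 20 CPM or more, 1 was lower and 9 higher in KO over WT among 20 in Il1rl1-high cells, and 6 lower and 2 higher among 18 in Il1rl1-zero cells. Over all genes, 14.5% were lower and 17% higher in the Il1rl1-high cells, and 6.79% lower and 9.05% higher in the Il1rl1-zero cells. The long-gene cluster supplied 22.2% of the KO and 18.9% of the WT Il1rl1-high cells, and its part in these values was not tested. Il1rl1-zero cells made up 51.9% of thinned KO and 40.4% of thinned WT cells. A Poisson count with the same mean would leave 32.3% and 25.1%, so here too such cells may still express the gene.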

How the data were processed

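The deposited matrices hold raw counts, whole UMIs, with hashtags and genes in 1 matrix, per the file headers. Cell Ranger 7.1.0 (Srebf2 pool) and 7.0.1 (diet pool) are named in the matrix headers, and 7.0.1 with the mm10 build per the submitters' processing notes. No source used here gives further filters by the authors. Receptor sequences were left aside.

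After the gene and mitochondrial filters, 8595 and 11134 barcodes remained. Of these, 810 and 808 fell under the hashtag rule, which also removes droplets of mixed hashtags, and 339 and 876 held Cd79a, Lyz2 or Cd8a. Doublets within a condition were not called. UMIs were summed per condition (16444262 in KO, 14010241 in WT, 18543516 in HFD and 22200627 in NCD cells) and given as CPM with exact Poisson intervals, shares with Clopper-Pearson intervals, and log2 ratios with 0.5 counts added to each sum and intervals from the binomial split. Thinning drew UMIs without replacement (seed 1). Clusters came from scanpy 1.11.5 (Leiden, resolution 0.6, 15 neighbours, 30 components, 2000 variable genes, without Il1rl1, antigen receptor, immunoglobulin, mitochondrial and ribosomal genes). These groups were left unnamed. Gene lengths, coordinates and promoter windows are RefSeq, GRCm38.p6.

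Named are members of the ST2 pathway, regulator and chromosome 1 lists at 5 CPM or more, the 10 highest and 6 lowest r per condition, genes among the 50 highest in all conditions, and state markers. Antigen receptor, immunoglobulin and ribosomal protein genes were set aside from the r lists by their symbols, a rule that does not take Fau. Some genes that this rule takes are not reported here. Effector genes and transcription factors named by Il1rl1 class were chosen after their values were seen. The gene, the lists and the rules were chosen with earlier results of these data known. Scripts were tested on simulated data.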

Additional observations from a re-analysis of the deposited data

How the results depend on the processing

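Of 70 values under other settings, 0 turned their direction and 18 moved, as levels, ratios and shares beyond the counting interval or as gene overlaps by over 1.5 times. Gene overlaps and levels of the highest cluster are among the 70 and have no direction to turn. The log2 ratio of KO over WT (−0.29) was −0.24 in cells with a Foxp3 UMI and −0.36 with every cell weighted equally. That of HFD over NCD (−2.61) was −2.51 without the rule on Cd79a, Lyz2 and Cd8a, −2.45 in cells with a Foxp3 UMI, −2.49 without the deepest 5% of cells, −2.54 without mitochondrial, ribosomal, antigen receptor and immunoglobulin genes in the total, and −2.54 with cells weighted equally. The difference in the thinned share, −11.5 percentage points for KO and WT, was −8.56 without the rule on Cd79a, Lyz2 and Cd8a and −8.21 at 1000 UMIs per cell. That for HFD and NCD, −52.7, was −49.0 without that rule, −38.7 at 1000 UMIs, −61.0 at 3000 UMIs and −60.5 without thinning. Of the 50 genes with the highest r in WT, 32 stayed by Spearman rho, 26 among cells with no Fos, Atf3 or Hspa1a UMI and 20 without the long-gene cluster, and 30 stayed in KO without it. The highest HFD cluster stood at 1084 CPM, and at 1175 CPM at resolution 1. The cause was not tested for any of these. No paired analysis was possible because each condition is 1 pool with no replicate number. With 1 sample per condition, no replicate could be left out. The depth, with medians of 3193.5 to 3989 UMIs per cell, limits the shares: a cell without an Il1rl1 UMI may still express the gene.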
